A study of Mus musculus with 5 samples.

Results

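The chaperonin CCT (also called TRiC) is the folding chamber of the cytosol, and its 8 subunit genes *Tcp1*, *Cct2*, *Cct3*, *Cct4*, *Cct5*, *Cct6a*, *Cct7* and *Cct8* were examined in RNAseq libraries of macrophages sorted from mouse aortas. The 8 genes were taken by symbol from a table of 55487 genes, to set *Cct8* beside the subunits with which it assembles. *Cct8* itself was chosen by its counts in these libraries, which were above 0 in 1 genotype only, so its difference between the genotypes is given as a description without a p-value. The 7 partners were picked as members of the complex and not for their counts.

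Whole aortas of male mice, which ate chow during 8 weeks and a Western diet during the following 10 weeks, were digested, and viable CD45+ F4/80+ cells were sorted per the labels, with CD11b as a further gate per the methods of the study. Its methods of isolation name whole aortas, but its methods of sequencing and its results name the aortic sinus as the source. All animals lacked *Apoe*, whose loss makes mice prone to atherosclerosis. The 2 libraries labelled WT came from *Zeb1* WT/*Apoe* KO mice, which carry floxed *Zeb1* without Cre, and the 3 libraries labelled KO came from *Zeb1* ∆M/*Apoe* KO mice, in which Cre expressed from *Lyz2* deletes *Zeb1* in myeloid cells, neutrophils included. They are called WT and ∆M libraries here. Macrophages of 3 mice were mixed per genotype and libraries were made in triplicate. The study describes its replicates in general as biologically independent, but the labels do not tie a library to its own mice, so the spread behind a p-value may be in part technical. The cDNA was amplified with a kit for ultra-low input.

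CCT is built of a pair of stacked rings, each with 1 copy of each of the 8 subunits, and it closes around newly made actin, tubulin and many proteins with WD40 propellers while ATP is hydrolyzed. A subunit cannot replace another one, and the assembled ring has a side that binds ATP strongly (*Cct2*, *Cct4*, *Cct5* and *Cct7* products) and a side that binds it weakly (*Tcp1*, *Cct3*, *Cct6a* and *Cct8* products). Macrophages depend on the folding of actin and tubulin to migrate and to engulf particles.

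The promoters of 2 members are shown as references for the gene on which the comparison turns and for a partner found in 4 libraries. They are the 250 bases upstream of the RefSeq start in GRCm38.p6, 5′ to 3′ on the strand of the gene, at chr16:87495870-87496119 (minus strand) for *Cct8* and chr6:85451255-85451504 (plus strand) for *Cct7*. Capitals mark matches on either strand to GGGCGG (the box read by SP1), CCAAT (read by NF-Y), CAGGTG (the E-box bound by ZEB1) and GAANNTTC (a part of the heat shock element).
Cct8: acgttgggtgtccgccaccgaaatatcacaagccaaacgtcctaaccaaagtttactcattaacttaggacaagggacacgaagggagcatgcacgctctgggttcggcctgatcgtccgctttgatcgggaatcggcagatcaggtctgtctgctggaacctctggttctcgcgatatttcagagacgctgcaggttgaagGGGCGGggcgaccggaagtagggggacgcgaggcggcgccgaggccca
Cct7: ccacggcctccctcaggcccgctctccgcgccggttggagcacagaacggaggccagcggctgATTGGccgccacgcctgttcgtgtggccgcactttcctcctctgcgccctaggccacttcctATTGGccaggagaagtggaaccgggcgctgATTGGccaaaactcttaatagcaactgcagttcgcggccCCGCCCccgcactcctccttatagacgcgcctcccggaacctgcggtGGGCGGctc
The *Cct8* stretch held 1 match to GGGCGG and 0 to the other motifs, whereas the *Cct7* stretch held 2 matches to GGGCGG and 3 to CCAAT. RefSeq windows of 250 bases before to 50 after the start were given for 7 members, with *Cct4* missing. GGGCGG was found in all 7 (35.7% of the 32851 windows of all genes), CCAAT in 4, namely *Tcp1*, *Cct3*, *Cct6a* and *Cct7* (37.4% of all windows), GAANNTTC in *Cct2* alone (7.86% of all windows), and CAGGTG in 0 of 7 (20.2% of all windows). In both printed stretches no match overlapped another. A match of letters is not a site of binding, and a window without one says only that these letters were not in it.

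The libraries held between 20118545 and 50649912 counts. Counts were scaled to a common library size (CPM) with TMM factors, which ranged from 0.515 to 1.42, and a gene was taken as detected with over 3 counts, a floor of 0.0573 to 0.239 CPM. The reads were amplified, so a floor covers counting error only. *Zeb1*, the gene deleted, had 0 counts in 4 libraries and 22 in ∆M replicate 1, so the labels of genotype could not be checked with it. *Apoe*, which all animals lacked, had 48 and 31 counts in the WT libraries and 86, 0 and 4 in the ∆M libraries, at most 6.85 CPM. The locus that carries Cre, *Lyz2*, was without overlap and lower in the ∆M libraries, with 20888 and 21170 CPM against 12864, 19219 and 16609 CPM (log2 fold change −0.39, standard error 1.32, edgeR adjusted p = 1). Of 8 macrophage markers, 5 to 7 were detected in each library, with *Ptprc*, *Adgre1*, *Csf1r* and *Lyz2* in all 5. Their sum, 12992 to 23504 CPM, was mostly *Lyz2* (12864 CPM in ∆M replicate 1). *Cd68* had 0 counts in WT replicate 1 and 10 in ∆M replicate 1 against 36172 to 46735 in the other 3 libraries, *Itgam*, which encodes CD11b, had 0 in ∆M replicate 1, *Fcgr1* had 0 to 2 in 3 libraries, and *Mertk* 0 in 4. Both replicate 1 libraries stood apart from the others, with 1714 (WT) and 870 (∆M) genes at 100 counts or more against 3173 to 4421 in the other 3, and with 3.35% and 4.61% of their counts on mitochondrially encoded genes against 1.24% to 1.60%.

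*Cct8* (ENSMUSG00000025613.13), the theta subunit of the weakly ATP-binding side, lies on the minus strand of chromosome 16 of GRCm38 from 87483326 to 87495873, with 15 exons in its principal transcript. It had 0 and 0 counts in WT replicates 1 and 2, and 2612, 9540 and 834 counts in ∆M replicates 1, 2 and 3. All 3 ∆M libraries were therefore higher than both WT libraries. Its mean in the ∆M libraries was 146 ± 113 CPM (SD, n = 3). Against the mean floor of 3 counts per library in the WT libraries, this was at least 1562-fold higher. In CPM, ∆M replicates 1 and 2 were alike, with 208 and 214, whereas replicate 3 had 15.9. The likeness rested on TMM factors of 0.515 and 1.25 for replicates 1 and 2, which had totals of 24372265 and 35771785 counts. Scaled by total counts alone, *Cct8* was higher in replicate 2 than in replicate 1. These are the values for which *Cct8* was chosen.

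Detection in all ∆M libraries and in no WT library was shared by 244 of the 21705 genes with over 3 counts in any library (1.12%). These 21705 include 16423 genes detected in ∆M replicate 1, of which 870 reached 100 counts, so many of them were poorly counted. The opposite pattern, detection in both WT libraries and in no ∆M library, was found for 130 genes (0.599%). With 100 counts or more in every library of 1 genotype and 0 counts in the other, 10 genes including *Cct8* were present in the ∆M libraries only and 13 genes in the WT libraries only.

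*Cct3* (ENSMUSG00000001416.13, chromosome 3, 88297116 to 88321767), the gamma subunit, came closest to *Cct8*. It had 0 and 0 counts in the WT libraries and 3, 28291 and 1083 counts in the ∆M libraries. Its ∆M values lay above its WT values, but ∆M replicate 1 was at the floor, where *Cct8* had 2612 counts. The lowest ∆M count was thus 3 for *Cct3*, just outside the pattern of *Cct8* at over 3 counts, whereas that of *Cct8* was 834, far above the floor. The mean of *Cct3* in the ∆M libraries was 218 ± 360 CPM (SD, n = 3), which against the same floor was at least 2339-fold higher. This fold rested on ∆M replicate 2, without which the mean was 10.5 CPM and the fold at least 112.

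*Cct2* (ENSMUSG00000034024.8, chromosome 10, 117051001 to 117063814), the beta subunit of the strongly ATP-binding side, was also at 0 counts in both WT libraries. It had 0, 3370 and 0 counts in the ∆M libraries, so a single library of 5 held it. Of the 7 partners, *Cct2* and *Cct3* (2) had 0 counts in both WT libraries, as had 42.9% (9322) of all genes over the floor in any library. That set holds 16423 genes detected in ∆M replicate 1, against 5009 to 6931 in the others. The share is thus not that of well-counted genes. *Cct2* did not pass the filter on low counts and was not tested.

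*Tcp1* (ENSMUSG00000068039.13, chromosome 17, 12915701 to 12925067), the alpha subunit and the founding member of the family, had 0 and 308 counts in the WT libraries and 6, 11464 and 37585 counts in the ∆M libraries. The genotypes overlapped, as ∆M replicate 1 lay between the WT libraries with 0.478 CPM against 8.39 CPM in WT replicate 2. The remaining 2 ∆M libraries had 257 and 718 CPM.

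*Cct6a* (ENSMUSG00000029447.11, chromosome 5, 129786998 to 129846371), the zeta subunit, was the sole member with counts in WT replicate 1. It had 461 and 28 counts in the WT libraries and 2, 8025 and 0 counts in the ∆M libraries. The highest and the lowest library were both ∆M libraries, with 180 and 0 CPM. In the GENCODE M21 annotation this locus is typed as a processed transcript, whereas the deposited table types it as protein coding.

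*Cct5* (ENSMUSG00000022234.15, chromosome 15, 31590800 to 31601804), the epsilon subunit, had 0 and 7736 counts in the WT libraries and 1, 37078 and 9318 counts in the ∆M libraries. *Cct7* (ENSMUSG00000030007.8, chromosome 6, 85451514 to 85468475), the eta subunit, had 0 and 9711 counts in the WT libraries and 11, 19440 and 28845 counts in the ∆M libraries. For both genes the replicate 1 libraries were near 0 in either genotype, and the other 3 libraries lay between 178 and 832 CPM. WT replicate 2 was higher than ∆M replicate 3 for *Cct5* (211 against 178 CPM), and for *Cct7* it had 264 CPM against 436 and 551 CPM.

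*Cct4* (ENSMUSG00000007739.10, chromosome 11, 22990519 to 23003780), the delta subunit, had 0 and 599 counts in the WT libraries and 8, 6 and 3143 counts in the ∆M libraries. It was the sole member near the floor in ∆M replicate 2, the library in which the other 7 members had 3370 counts or more.

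**Figure D1:**
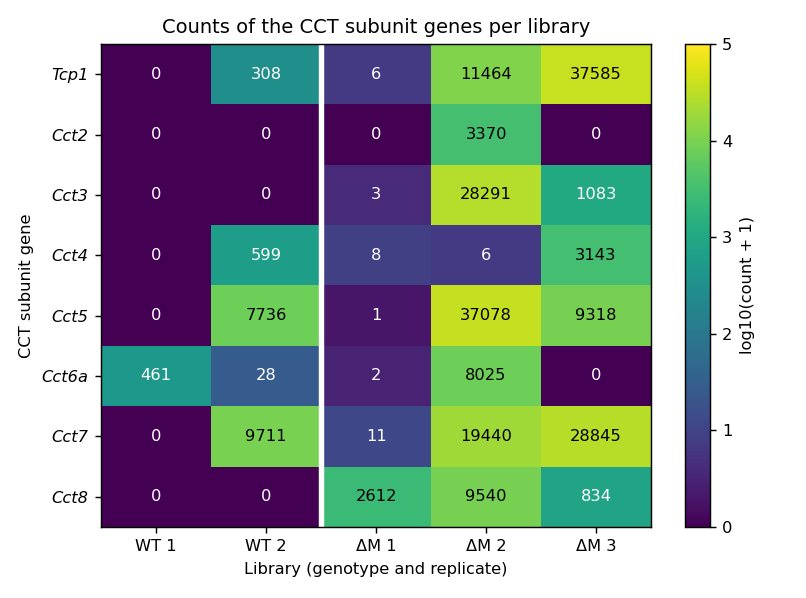
Counts of the 8 CCT subunit genes (rows) in the 2 WT and 3 ∆M libraries (columns), as numbers and as colour on a log10(count + 1) scale. *Cct8* had 2612, 9540 and 834 counts in the ∆M libraries and 0 in both WT libraries, while the column of ∆M replicate 1 held at most 11 counts for any other member.

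The number of members detected followed the library. It was 1 of 8 in WT replicate 1 and 5 in WT replicate 2, and 4, 8 and 6 in ∆M replicates 1, 2 and 3. None of the 8 members (0) was detected in all 5 libraries, as were 1085 of the 21705 genes over the floor in any library. Over the 7905 genes tested, the share detected was 60.9% and 60.4% in the WT libraries and 77.6%, 49.4% and 62.3% in the ∆M libraries. ∆M replicate 2 thus had the most CCT members and the lowest share of all genes, and ∆M replicate 1 had the highest share of all genes. With a minimum of 10 counts, ∆M replicate 1 had 2 members, *Cct7* at 11 counts and *Cct8*. In that library 10247 genes of the table had 1 to 9 counts, against 3127 to 5486 in the other 4, and 6 of the 7 partners, all but *Cct2*, lay at 1 to 11 counts.

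**Figure D2:**
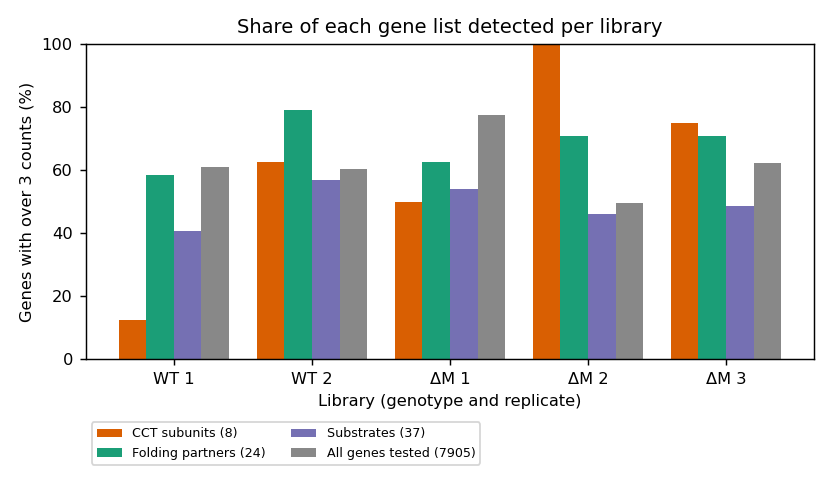
Share of genes with over 3 counts (vertical axis, percent) in each library for the 8 CCT subunits, 24 folding partners, 37 substrates and tubulin cofactors, and all 7905 genes tested. The CCT bars go from 1 of 8 genes in WT replicate 1 to 8 of 8 in ∆M replicate 2, whereas the bars of all genes tested stay between 49.4% and 77.6%.

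Loss of signal between libraries of the same genotype was common for the partners. Of 27 ordered pairs of same-genotype libraries in which a partner reached 100 counts in the first, 12 (44.4%) held at most 3 counts of it in the second. Between genotypes this was 16 of 37 (43.2%). For all genes, the shares were 38.7% of 22501 pairs within a genotype and 38.3% of 34771 pairs between genotypes. *Cct8* had 0 of 6 such pairs within a genotype and 6 of 6 between genotypes, which is the pattern it was chosen for.

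The summed level of the 8 members was 16.2 and 501 CPM in the WT libraries and 210, 2629 and 1543 CPM in the ∆M libraries. The WT mean was 258 ± 343 CPM (SD, n = 2), the ∆M mean was 1461 ± 1211 CPM (SD, n = 3), and the genotypes overlapped. The log2 ratio of the means, ∆M over WT, was 2.5. For the 7 partners alone, the sums were 16.2 and 501 CPM in the WT libraries and 2.47, 2415 and 1527 CPM in the ∆M libraries, with a log2 ratio of 2.35. ∆M replicate 1 was the lowest of all 5 libraries for the partners, although it had 208 CPM of *Cct8*. The ratio of the partners rested on single libraries of both genotypes, at 6.35 without WT replicate 2, 1.39 without WT replicate 1, 1.57 without ∆M replicate 2 and 2.93 without ∆M replicate 1. Without both replicate 1 libraries, a comparison added after seeing the data, it was 1.98. No p was computed for these sums. In bulk libraries, fewer cells with a transcript and less RNA per cell cannot be told apart.

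Levels were compared between members per kilobase of principal transcript (for *Cct6a*, which has none, of its longest transcript). Which subunit led differed from library to library. *Cct6a* made up 100% of the summed level per kilobase in WT replicate 1. *Cct5* (48.9%) and *Cct7* (46.6%) made up most of it in WT replicate 2, and *Cct8* 98.8% in ∆M replicate 1. In ∆M replicate 2 the leading members were *Cct5* (35.8%) and *Cct3* (25.6%), with *Cct8* at 7.12%. In ∆M replicate 3 they were *Tcp1* (44.7%) and *Cct7* (34.4%), with *Cct8* at 1.01%. No library (0 of 5) held all 8 members at 10 counts or more, although the complex contains equal numbers of each subunit.

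**Figure D3:**
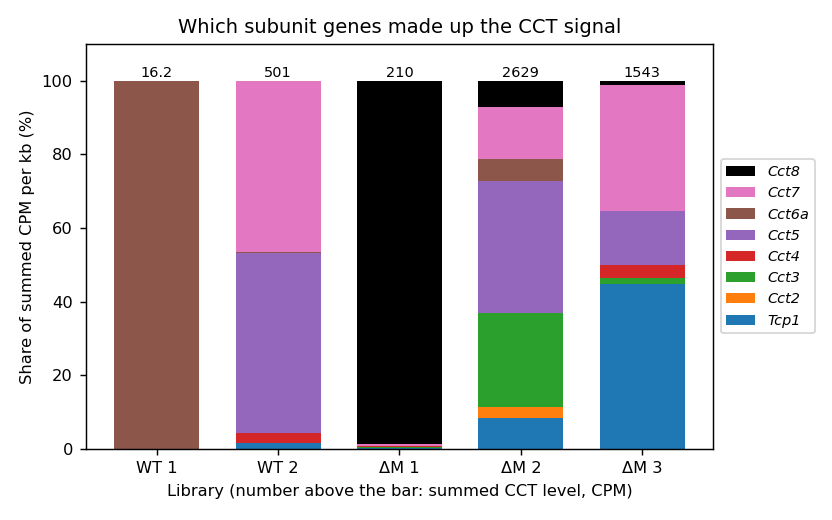
Share of each member in the summed CPM per kilobase of the 8 CCT genes (vertical axis, percent) in each library, with the summed level in CPM above each bar. *Cct8*, in black, makes up 98.8% of ∆M replicate 1, 7.12% and 1.01% of ∆M replicates 2 and 3, and is absent from the WT bars.

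Over the 5 libraries, the mean level per kilobase was highest for *Cct5* at 132 ± 185 CPM per kilobase (SD, n = 5). *Cct7* followed with 103 ± 102, *Tcp1* with 80.4 ± 127, *Cct3* with 66.3 ± 142, *Cct8* with 36.6 ± 47.1, *Cct6a* with 16.1 ± 32.1, *Cct2* with 7.72 ± 17.3 and *Cct4* with 6.21 ± 10.4 CPM per kilobase. Neighbours in this order differed by less than the spread between libraries. The order rested on ∆M replicates 2 and 3. Without replicate 2 *Cct7* was highest at 83.6 ± 108 CPM per kilobase (SD, n = 4), ahead of *Tcp1* (74.3 ± 146) and *Cct5* (52.4 ± 61.0), and *Cct3* was at 2.65 ± 5.21. The place of *Tcp1* rested on ∆M replicate 3, with 293 CPM per kilobase against at most 105 in any other library.

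The genotypes were compared with edgeR's quasi-likelihood test on all 7905 genes that passed the filter on low counts. *Cct3*, *Tcp1*, *Cct6a*, *Cct5*, *Cct7*, *Cct4* and *Cct8* were among them. None of the 6 partners tested (0) had a Benjamini-Hochberg adjusted p under 0.05, as did 0.0% of all genes tested. An unadjusted p under 0.05 was found for 0 of the 6 and for 86 of all genes (1.09%). The log2 fold change, ∆M against WT, was 6.24 for *Tcp1* (standard error 5.39), 2.84 for *Cct6a* (5.54), 1.64 for *Cct5* (4.04), and 1.28 for both *Cct7* (3.95) and *Cct4* (4.81), each with an adjusted p of 1. Each of these 5 lay within 2 standard errors of 0. For *Cct3*, a fitted value of 15.90 (standard error 8.12, unadjusted p = 0.0502, adjusted p = 1) depends on the prior count, since both WT libraries were at 0. *Cct3* also passed the filter through 2 ∆M libraries alone, so these edgeR p-values are no support for a difference. The libraries can be split 10 ways into 2 and 3, so a two-sided exact permutation test can reach no p below 0.1, and it gave p = 0.2 for *Cct3*, 0.3 for *Tcp1*, 0.5 for *Cct7*, 0.6 for *Cct5*, 0.8 for *Cct4* and *Cct6a*, and 1 for *Cct2*.

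The fitted log2 fold change of *Cct8*, which likewise depends on the prior count, was 15.31 (standard error 8.56). The 6 tested partners had a log2 fold change above 0, with a median of 2.24, and *Cct3* among them passed the filter on low counts through 2 ∆M libraries alone. Over all genes tested, 60.9% (4811) were above 0 and the median was 0.78. Both medians moved with the method and with single libraries. Over the same 6 partners and 7905 genes they were 1.88 and 1.10 with DESeq2, and 7.09 and −0.30 with limma-voom. Over those of them still tested with edgeR, they were 16.24 (which depends on the prior count) and 3.62 without WT replicate 2. Without ∆M replicate 2 they were 1.12 and 0.60. Over every gene with a DESeq2 value, *Cct2* included, the medians were 1.89 for 7 partners and 3.56 for 27091 genes, so that the order of partners and all genes depended on which genes were counted. CPM without overlap between the genotypes was found for 1 of the 7 partners, *Cct3*, higher in the ∆M libraries. Among the genes tested 11.2% were without overlap, and 6.7% were without overlap and higher in the ∆M libraries. Among all genes over the floor in any library the latter share was 3.89%.

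**Figure D4:**
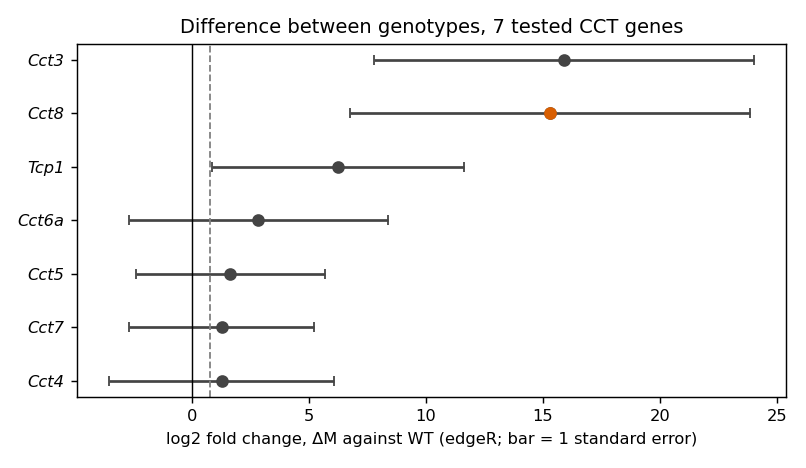
log2 fold change, ∆M against WT, of the 7 CCT genes tested with edgeR (horizontal axis), with bars of 1 standard error. *Cct8* is drawn in orange, the solid line marks 0 and the dashed line the median of all genes tested, 0.78; the values for *Cct3* (15.90) and *Cct8* (15.31) depend on the prior count because both WT libraries were at 0.

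Fold changes of the partners rested on single libraries. Without WT replicate 2, the log2 fold change was 16.54 for *Tcp1*, 16.55 for *Cct7*, 16.58 for *Cct5* and 12.54 for *Cct4*, values that depend on the prior count because the remaining WT library was at 0. Without WT replicate 1 it was 0.40 for *Cct7* and 0.41 for *Cct4*. The sign of the edgeR log2 fold change turned for *Cct6a* (−6.96) and *Cct5* (−0.18) without ∆M replicate 2, for *Cct4* with the replicate number as a block (−0.49, with a standard error of 219.8, so that it carries no direction), and for *Cct6a* with limma-voom (−2.55).

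Genes most like *Cct8* over the 5 libraries were found by the Euclidean distance in log2 CPM among the 7904 other genes tested. The nearest was *Trappc3*, a subunit of the TRAPP tethering complexes, at a distance of 3.05, with 0 and 0 counts in the WT libraries and 8493, 10780 and 4818 in the ∆M libraries. *Tet2*, which oxidizes methylated cytosine, followed at 3.36 with 2 and 4 counts against 429, 9607 and 1551. *Nras*, a RAS GTPase, lay at 3.75 with 0 and 0 counts against 334, 11430 and 4045. *Arhgef10l* lay at 3.82 with 0 and 0 counts against 247, 3378 and 454, and *Aldh3b1*, an aldehyde dehydrogenase, at 3.98 with 0 and 0 counts against 36834, 15008 and 434. None of the 5 (0) was a CCT partner. Only 6 of the 7904 genes were partners, and the distance used the counts for which *Cct8* was chosen. This count is therefore no evidence about the partners. *Cct3* ranked 247 at a distance of 9.59, *Tcp1* 980 at 12.51, and *Cct7*, *Cct4*, *Cct6a* and *Cct5* between 2993 and 4417.

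The copies of CCT genes with a row in the table took few counts. *Cct6b*, a testis paralog of *Cct6a*, and *Cct8l1*, a relative of *Cct8*, had 0 counts in all 5 libraries. *Tcp1-ps1* had 18 counts in WT replicate 1 and *Cct3-ps1* 10 in ∆M replicate 2, with 0 in the other libraries. Of 14 pseudogenes that RefSeq lists under an older CCT name, 11 had a row, and the highest count was 26, for *Gm5234* in ∆M replicate 1. The other 3, *Gm20588* and *Gm20595* (copies of *Cct8*) and *Gm20592* (a copy of *Cct6a*), were not analysed here. The spans of 4 member genes, introns included, overlap that of a protein-coding gene on the opposite strand. With an unstranded count, reads from exons in a shared stretch could not be told apart. Whether exons of both genes lie there was not determined. *Cct8* shares 192 bases with *Usp16*, a deubiquitinase gene, which had 17 and 1969 counts in the WT libraries and 9, 0 and 6291 in the ∆M libraries. *Usp16* was high in WT replicate 2, where *Cct8* was at 0, and at 0 in ∆M replicate 2, where *Cct8* was highest. The part of shared reads in the counts of either gene was not tested. *Tcp1* shares 645 bases with *Mrpl18*, which had 0 and 9512 counts against 0, 0 and 11205, and *Cct7* shares 457 bases with *Pradc1*, which had 2329 counts in WT replicate 2 alone. *Cct6a* shares 452 bases with *Psph*, which had 5090 counts in ∆M replicate 3, where *Cct6a* was at 0, and 9 in ∆M replicate 1.

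Genes that hand proteins to CCT or fold them alongside it were read from a list of 24, of which 20 were tested. None was called (0 at an adjusted p under 0.05 and 0 at an unadjusted p under 0.05 with edgeR), 9 had a log2 fold change above 0 and 11 below, and the median was −0.24. Over all genes tested, 0.0% were called, 1.09% had an unadjusted p under 0.05, 60.9% had a log2 fold change above 0 and the median was 0.78. *Hspa8*, the constitutive HSP70, was the most abundant, with 56820 and 201892 counts in the WT libraries and 61203, 164732 and 209949 in the ∆M libraries (log2 fold change 0.14, standard error 1.98). *Hsp90aa1* and *Hsp90ab1*, the cytosolic HSP90 genes, were detected in all 5 libraries, with log2 fold changes of 0.44 (2.76) and −0.20 (2.65). Unlike the CCT genes, 9 of these 24 genes were detected in every library.

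Prefoldin, the jawed hexamer that delivers actin and tubulin chains to CCT, was detected in part in every library (2 and 5 of its 6 genes in the WT libraries, 3, 4 and 5 in the ∆M libraries). *Pfdn5* had 23008 and 1916 counts in the WT libraries and 91930, 10069 and 1108 in the ∆M libraries, and its highest libraries were the replicate 1 libraries of both genotypes, where the CCT partners were lowest. *Pfdn6* was without overlap and lower in the ∆M libraries, with 10784 and 6269 counts against 26, 1739 and 2123 (log2 fold change −3.33, standard error 4.50, adjusted p = 1 with edgeR).

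*Hspd1*, the mitochondrial chaperonin HSP60 and a distant relative of the CCT subunits, had 0 and 0 counts in the WT libraries and 5, 18156 and 4077 in the ∆M libraries, an order of libraries like that of *Cct3*. Its co-chaperonin *Hspe1* had 3531 and 4594 counts in the WT libraries and 0, 8123 and 545 in the ∆M libraries, so that HSP60 and HSP10 transcripts were not found together in the WT libraries. *Hspd1* was without overlap (edgeR adjusted p = 1) and, like *Cct3*, passed the filter through 2 ∆M libraries alone. *Bag1*, an HSP70 nucleotide exchange factor, was without overlap and lower in the ∆M libraries, with 3979 and 5 counts against 0, 1 and 0, and edgeR's filter removed it. DESeq2 called *Hspd1* and *Bag1*, 2 of the 11 genes of this list with an adjusted p (12.2% of all genes), and limma-voom called *Hspd1*, 1 of 20 (2.96% of all genes).

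Substrates of CCT and the tubulin cofactors that take over from it were read from a list of 37 genes, of which 33 were detected in any library and 23 were tested. None was called with edgeR (0, and 2 at an unadjusted p under 0.05), 9 had a log2 fold change above 0 and 14 below, and the median log2 fold change was −0.82, against 0.0% called, 1.09% at an unadjusted p under 0.05, 60.9% above 0 and a median of 0.78 over all genes tested. *Actb*, the main substrate of CCT, had 184488 and 489635 counts in the WT libraries and 270343, 533391 and 475674 in the ∆M libraries, with a fitted log2 difference of 0.50 (standard error 1.49). *Actg1* had between 53728 and 81004 counts in the 5 libraries. Both actin genes were thus abundant in WT replicate 1 and ∆M replicate 1, in which the CCT partners summed to 16.2 and 2.47 CPM.

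Of the 13 tubulin genes, 9 were tested, of which 1 had a log2 fold change above 0 and 8 below (60.9% above 0 over all genes). *Tubb6* had 49681 and 1 counts in the WT libraries and 1, 39698 and 18710 in the ∆M libraries, with 1 library near 0 in each genotype (log2 fold change −1.05, standard error 3.08). All 5 tested genes of the tubulin cofactor group had a log2 fold change below 0, with 0 called by edgeR. Over the 7905 genes tested, 3094 were below 0. For some of the 5, a single WT library held all WT counts. *Tbcc*, the cofactor that triggers GTP hydrolysis on the tubulin dimer, was without overlap, with 10 and 4937 counts in the WT libraries and 0 in all 3 ∆M libraries (log2 fold change −14.23, edgeR adjusted p = 1). It passed the filter on low counts through the WT libraries alone, so its fold change is no measure of the group. *Tbce* had 7464 counts in WT replicate 2 alone.

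Of the 10 genes of WD40 proteins, 6 were tested, and these had a log2 fold change above 0 (60.9% over all genes), with 0 called by edgeR. The filter helped to set this count, since *Fzr1* and *Ppp2r2a* passed it through ∆M libraries alone and *Cdc20*, with 9166 counts in WT replicate 2 only, did not pass. *Fzr1*, an activator of the anaphase-promoting complex, had 0 and 0 counts in the WT libraries and 29, 6 and 1474 in the ∆M libraries. *Ppp2r2a*, a regulatory subunit of phosphatase PP2A, had 0 and 3 counts against 9, 14492 and 807. Both were without overlap. *Strap* had 7 and 0 counts in the WT libraries and 46588, 0 and 4 in the ∆M libraries, so its unadjusted p of 0.0129 (adjusted p = 1 with edgeR) rested on ∆M replicate 1. DESeq2 called 6 of the 21 genes of the list with an adjusted p (12.2% of all genes), of which *Cdc20*, *Tbce* and *Hdac3* had counts in WT replicate 2 only, and *Fzr1*, *Ppp2r2a* and *Tbcc* were without overlap. limma-voom called *Ppp2r2a*, 1 of 23 (2.96% of all genes). Because *Fzr1*, *Ppp2r2a* and *Tbcc* had over 9 counts in 1 genotype only, their calls are no support for a change of the list.

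Marker genes of other cells were read in the same libraries, where the summed CCT partners had 16.2 and 501 CPM (WT) and 2.47, 2415 and 1527 CPM (∆M). Neutrophil markers (5 genes, 4 of them detected, *Ly6g* with 1 count in all) summed to 2531 and 630 CPM in the WT libraries and 2639, 809 and 38.2 CPM in the ∆M libraries. The sum was highest in the replicate 1 libraries, where the partners were lowest, but its genes did not move together. In ∆M replicate 1 it was almost all *S100a8* (2637 CPM), with *S100a9* and *Retnlg* at 0 counts, whereas WT replicate 1 had 29483 counts of *S100a9* and 8892 of *Retnlg*. T cell markers (5 genes, all detected) summed to 6.87 and 1606 CPM in the WT libraries and 1.59, 326 and 332 CPM in the ∆M libraries, and were lowest in the same 2 libraries. The adipocyte list (3 genes, of which *Fabp4* is also made by macrophages) summed to 321 and 48.9 against 2425, 0.0 and 10.6 CPM, which is the reverse of the order of the partners over the 5 libraries. Fibroblast markers (5 genes, 3 detected, *Lum* at 0) reached 426 CPM in ∆M replicate 2, from *Dcn*, and at most 2.16 CPM elsewhere. Endothelial markers (4 genes, 2 detected, *Cdh5* and *Tek* at 0) summed to at most 67.7 CPM, B cell markers (4 genes, 2 detected, *Cd79a* and *Cd79b* at 0) to at most 5.17 CPM, and smooth muscle markers (4 genes, 1 detected, *Acta2*, *Cnn1* and *Tagln* at 0) to at most 0.876 CPM. *S100a9* was also without overlap and lower in the ∆M libraries, with 29483 and 10969 counts against 0, 4180 and 1041 (edgeR adjusted p = 1). A gate on CD45, CD11b and F4/80 is meant to leave out neutrophils, T cells, B cells, fibroblasts, endothelial, smooth muscle and fat cells. The part of these cells, and of the low number of well-counted genes in the replicate 1 libraries, in the level of the CCT genes was not tested.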

How the data were processed

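RNAseq counts of 5 libraries were analysed, 2 WT and 3 ∆M. Read pairs were aligned by the authors with STAR 2.5.3a (GRCm38) and quantified with RSEM 1.3.0 on GENCODE mouse M25. The authors deposited whole-number counts per gene without normalization (tools and versions per the labels). Groups were taken from the sample titles. The genotypes were compared in edgeR 4.0.16 under R 4.3.3 (filterByExpr, minimum count 10, TMM, quasi-likelihood test without covariates, Benjamini-Hochberg adjusted p under 0.05). The standard error is the absolute log2 fold change divided by the square root of the F statistic. Alternatives were DESeq2 1.42.0, the tool of the study, limma-voom (limma 3.58.1), RLE size factors, total counts, other filters, the replicate number as a block and each library left out. Log2 CPM used a prior count of 2. The code of the tests was run on simulated negative binomial counts with known changes. That is a check of the code and not of error rates in these data. Positions and transcript lengths came from GENCODE M21 (GRCm38), which all but 260 of the 55487 identifiers matched without version, and promoters from RefSeq. Figures were drawn with matplotlib 3.10.9 in Python 3.11.15.

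The CCT members, the lists and the tests were chosen with earlier results of these data known. Named genes were the members, *Zeb1*, *Lyz2* and *Apoe*, per list the 4 genes with the highest mean CPM and those without overlap, the 5 nearest to *Cct8*, copies, and overlapping genes with over 3 counts in any library. *Hspe1*, *Cdc20*, *Tbce*, *Hdac3*, *Ccl6*, *Tmsb4x* and single marker genes were named after their values were seen where they fell outside this rule.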

Additional observations from a re-analysis of the deposited data

How the results depend on the processing

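The number of genes called was 0 with edgeR's quasi-likelihood test, 790 with DESeq2 and 234 with limma-voom, and 2 (*Ccl6* and *Tmsb4x*) with edgeR without both replicate 1 libraries, a fit added after seeing the data. These are 12.2% of the 6497 genes to which DESeq2 gave an adjusted p and 2.96% of those tested with limma-voom. For the CCT members DESeq2 gave 1 call, which was *Cct8*, and limma-voom 2, *Cct8* and *Cct3*. *Cct8* was chosen on these counts and *Cct3* passed the filter through the ∆M libraries alone, so these calls are no evidence about the complex. For the folding partners the counts were 2 of 11 and 1 of 20, and for the substrates 6 of 21 and 1 of 23. Leaving out 1 library in turn, RLE factors, total counts and the other filters each gave 0 calls in every list, and at 10 counts in every library no CCT member was left to test. The replicate block gave 0 genes. It has no stated pairing behind it, and the replicate 1 minus replicate 2 differences of the genotypes correlated at 0.18 across genes. Direction reversed for *Cct4* with the replicate block (−0.49, standard error 219.8), for *Cct5* without ∆M replicate 2 (−0.18), and for *Cct6a* with limma-voom (−2.55) and without ∆M replicate 2 (−6.96). With 1 library left out, the value lay between −0.18 and 16.58 for *Cct5*, −6.96 and 6.36 for *Cct6a*, 0.40 and 16.55 for *Cct7*, 0.41 and 12.54 for *Cct4*, and 4.90 and 16.54 for *Tcp1*, each but that of *Cct6a* highest without WT replicate 2. *Cct7* and *Tcp1* kept a positive sign wherever they were tested. The log2 ratio of the summed CCT level lay between 1.54 and 6.50 with 1 library left out (highest without WT replicate 2), and that of the partners between 1.39 and 6.35. The number of members without overlap, *Cct8* included, lay between 2 and 6 with 1 library left out, where the share of all genes rose from 11.2% to between 20.6% and 39.2%. It was 6 without WT replicate 2 (29.6% of all genes), 4 without ∆M replicate 1 (24.3%), and 4 without both replicate 1 libraries (53.3%). The cause of these changes was not tested beyond the smaller number of libraries. Where a WT library is left out, the lone WT library is assumed to vary like the ∆M libraries. The common dispersion was 6.44, and 3 counts limited detection.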
